A study of Homo sapiens with 6 samples.

Results

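Lysosome genes were described as a set of 44 named genes, matched by symbol to the gene identifiers of a table of 58735 genes. The set held 7 lysosomal membrane proteins, 9 proteases, 7 glycosidases and lipid hydrolases, 3 soluble carriers and cofactors, 15 subunits of the proton pump V-ATPase and 3 transcription factors of the MiT/TFE family. RNA was sequenced from HOK-16B cells, an immortalized line of human oral keratinocytes, in 3 libraries from cells pretreated with cannabidiol (CBD) and 3 from cells pretreated with vehicle. By the series' design text both groups received an inflammatory stimulus, so the vehicle group is stimulated as well; the labels name neither stimulus, dose nor time, and no unstimulated group was analysed here. HOK-16B is a single line, and nothing in the labels ties replicates to separate cultures, so p-values cover the spread among these 6 libraries alone, and that may be technical.

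Lysosomes are acidic organelles in which soluble hydrolases break down proteins, glycans and lipids delivered by endocytosis and autophagy. The V-ATPase keeps them acidic: its cytosolic V1 sector hydrolyses ATP and turns a rotor, and its membrane-embedded V0 sector carries protons into the lumen. TFEB, TFE3 and MITF bind a short palindromic promoter element called CLEAR, found before many lysosomal genes, and move to the nucleus when the kinase complex mTORC1 at the lysosome surface is inactive. In stratified epithelia, cathepsins, CTSD among them, are known to take part in the differentiation and shedding of keratinocytes.

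Levels are FPKM, read fragments scaled to gene length and library size. The length is that of all annotated exons of a gene, so comparisons of level between genes depend on the annotation. The libraries held 19010494 to 22158614 fragments in genes with CBD and 18213784 to 21200871 with vehicle. Keratinocyte markers were abundant in every library, with all 8 listed genes at a mean FPKM of at least 1, and the lineage factor TP63 at 59.6 to 62.1 FPKM with CBD and 55.6 to 59.6 FPKM with vehicle. The 6 melanocyte markers summed to 1.55 to 1.69 FPKM with CBD and 1.06 to 1.58 FPKM with vehicle, with TYR at 0 throughout. The 6 macrophage markers summed to 3.99 to 5.14 FPKM and 3.50 to 4.61 FPKM. Fibroblast markers, nearly all of it COL1A1, summed to 8.94 to 8.99 FPKM and 6.94 to 7.70 FPKM. The part of these markers in the lysosomal values was not tested, and in bulk RNA fewer cells of a type cannot be told apart from less RNA per cell. Counted fragments came from transcripts of higher GC content in the CBD libraries, 51.2% to 51.3%, than in the vehicle libraries, 50.2% to 50.9%, and vehicle replicate 1 lay lowest.

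No lysosomal gene passed the test of CBD against vehicle, and most differences were small, with a mean size of 0.166 on the log2 scale beside 0.162 for all genes tested. Values of CTSD, GAA, MCOLN1, CTSA, TFEB and PSAP lay higher in every CBD library than in any vehicle library, and those of ATP6V1C1, ATP6V1E1 and LIPA lay lower. Of the 44 genes 41 had a mean of at least 1 FPKM and were tested; CLN3, CTSS and MITF lay below that level. The test compared log2(FPKM + 1) by limma with Benjamini-Hochberg adjustment over 12517 genes and a threshold of 0.05. It called 0 of the 41 higher and 0 lower, while 0.352% of all genes tested were called (0.256% higher and 0.0959% lower); the smallest adjusted p among the 41 was 0.0604.

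At an unadjusted limma p under 0.05 the set had 14 genes higher with CBD (34.1% of 41) and 4 lower (9.76%), against 15.4% and 16.0% of all genes tested (31.4% in all). The 3 CBD values lay wholly above the 3 vehicle values in 17 of the 41 (41.5%) and wholly below in 7 (17.1%), against 18.7% and 21.9% of all genes (40.7% in all). With 3 libraries a group such separation gives an exact permutation p of 0.1, the smallest possible. The median log2 difference of the 41 was 0.07, beside -0.01 over all genes tested; 26 lay above 0 and 15 below. Calls depended on the method: limma-voom on reads recovered from the FPKM called 10 higher and 2 lower, beside 7.26% and 6.69% of all genes (13.9% in all). A mean of at least 5 FPKM, which left HEXA, ATP6V0A1 and TFEB untested, gave 4 higher and 1 lower, beside 5.87% and 4.19% (10.1% in all). Library weights gave 19 and 5, beside 21.7% and 22.9% (44.5% in all). Leaving out vehicle replicate 2 gave 9 higher and 2 lower, beside 10.1% and 8.66% (18.8% in all).

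**Figure D1:**
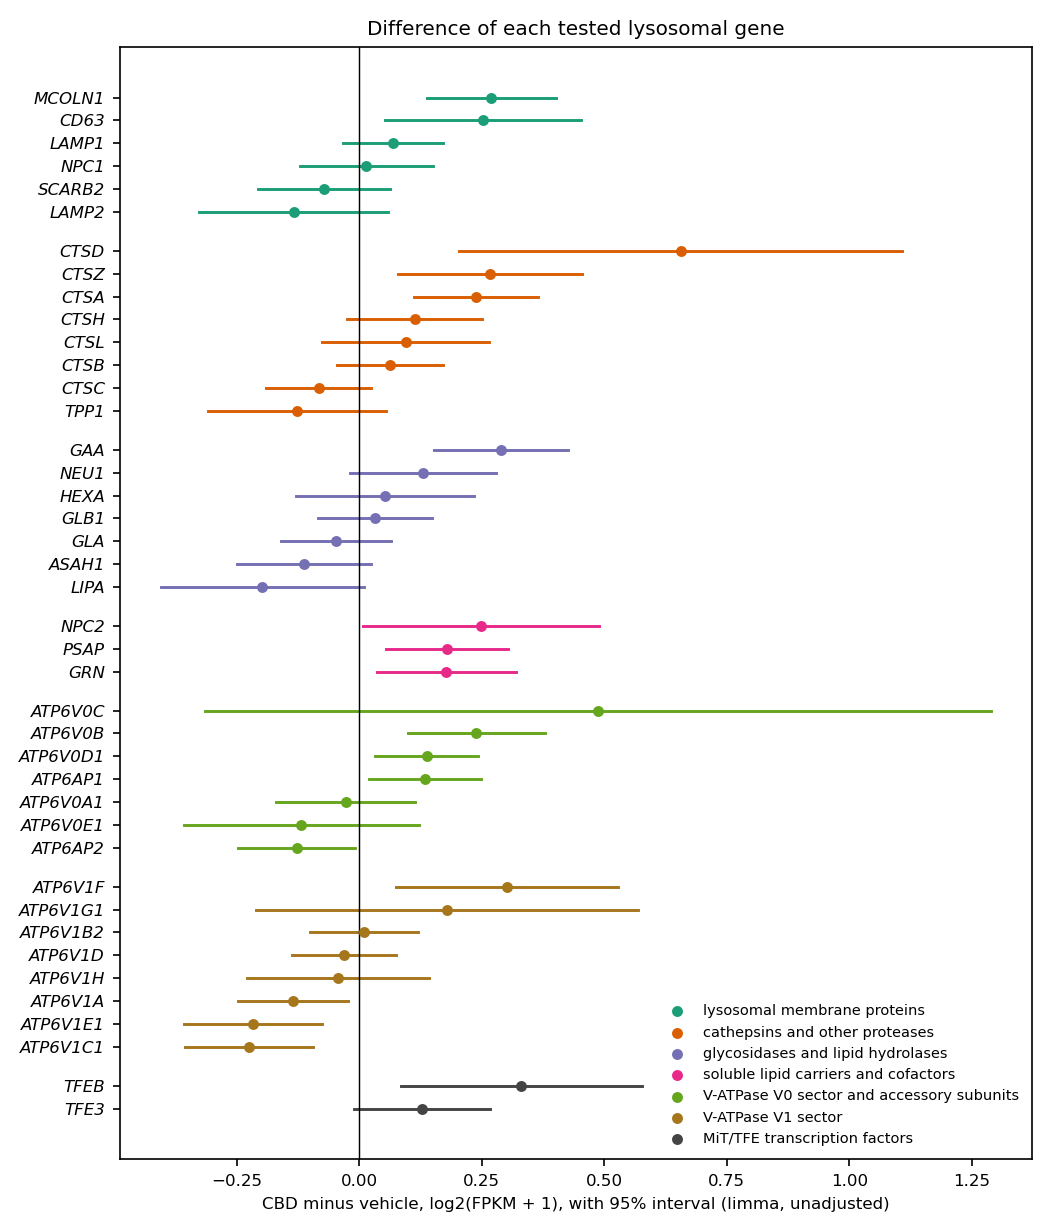
Difference between CBD and vehicle on the log2(FPKM + 1) scale (x axis) for the 41 tested genes, grouped by role; points are limma estimates and bars unadjusted 95% intervals. The estimates run from -0.22 for ATP6V1C1 to 0.66 for CTSD, and the widest interval is that of ATP6V0C.

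Among the membrane proteins, MCOLN1, CD63 and LAMP1 had higher values in every CBD library than in any vehicle library, and LAMP2, SCARB2 and NPC1 overlapped. MCOLN1 (chromosome 19, 7522626 to 7534009, GENCODE 29 gene span on GRCh38), which encodes the channel that releases lysosomal calcium, stood at 6.45, 6.15 and 6.48 FPKM in the CBD libraries, against 4.81, 5.38 and 5.14 FPKM in the vehicle libraries. All CBD values were above all vehicle values. The log2 difference was 0.27 ± 0.06 (SE; 95% interval 0.14 to 0.40), with a limma adjusted p of 0.0605 (range over alternatives 0.00275 to 0.387). In this and each later range of adjusted p the lowest value came from library weights, which called 44.5% of all genes tested. CD63, a membrane protein of late endosomes and exosomes, stood at 88.4, 94.7 and 82.4 FPKM in the CBD libraries, against 67.9, 82.3 and 72.4 FPKM in the vehicle libraries. Its lowest CBD library and highest vehicle library nearly met, and the difference was 0.25 ± 0.08 (limma adjusted p = 0.106). LAMP2, a receptor for chaperone-mediated autophagy, had 44.6, 46.2 and 43.7 FPKM in the CBD libraries, against 55.5, 44.4 and 48.6 FPKM in the vehicle libraries. The groups overlapped and vehicle replicate 1 was the highest of the 6, with a difference of -0.13 ± 0.08 (limma adjusted p = 0.288).

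LAMP1, with LAMP2 the main glycoprotein of the lysosomal membrane, averaged 68.6 ± 1.37 FPKM with CBD and 65.3 ± 1.20 FPKM with vehicle (SD, n = 3 each), a narrow separation. SCARB2, the sorting receptor of glucocerebrosidase, averaged 12.2 ± 0.304 FPKM with CBD and 12.8 ± 0.808 FPKM with vehicle. NPC1, which exports cholesterol from the lumen, averaged 8.85 ± 0.137 FPKM with CBD and 8.76 ± 0.590 FPKM with vehicle. In FPKM, SCARB2 and NPC1 lay well under the LAMP genes, but SCARB2 has an exon length of 19341 bases beside 5526 for LAMP2. Fragments of SCARB2, 4734 to 5595 in the CBD libraries, were close in number to those of LAMP2, 4977 to 5908. CLN3, the gene of juvenile Batten disease (chromosome 16, 28474111 to 28495575), was counted at only 0.0920 to 0.148 FPKM with CBD and 0.0724 to 0.120 FPKM with vehicle, from 21 to 30 and 14 to 26 fragments. In GENCODE 29 30.9% of its exon bases also belong to another gene, most of them to a same-strand gene that overlaps it, and how fragments in shared exons were assigned is not given in the sources used here. The median log2 difference of the 6 tested membrane protein genes was 0.04.

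The proteases held the difference of greatest size in the set, in CTSD. CTSD (chromosome 11, 1752752 to 1764573), the main lysosomal aspartic protease, stood at 128, 134 and 126 FPKM in the CBD libraries, against 59.3, 107 and 86.03 FPKM in the vehicle libraries. Every CBD library was above every vehicle library, but the vehicle values spread widely and vehicle replicate 1 was lowest. The log2 difference was 0.66 ± 0.19 (95% interval 0.20 to 1.11; limma adjusted p = 0.0875, range over alternatives 0.00293 to 0.242), and 0.43 without vehicle replicate 1. In GENCODE 29 52.7% of the exon bases of CTSD are shared with other annotated genes, among them a same-strand gene covering 41.7%, which had at most 0.0629 FPKM in any library.

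CTSA, a serine carboxypeptidase that also protects neuraminidase and beta-galactosidase, stood at 22.05, 21.6 and 21.7 FPKM in the CBD libraries, against 17.2, 19.3 and 18.6 FPKM in the vehicle libraries. The CBD values lay close together above the vehicle values (difference 0.24 ± 0.05; limma adjusted p = 0.0636, range over alternatives 0.00265 to 0.255). Of the exon bases of CTSA 28.5% are shared with opposite-strand annotated genes, among them NEURL2 (17.7%) and PLTP (3.42%). NEURL2 had at most 0.387 FPKM in any library. PLTP stood at 87.4, 87.9 and 88.5 FPKM in the CBD libraries, against 77.5, 82.4 and 77.5 FPKM in the vehicle libraries. The part of shared exons in the CTSA values was not tested. CTSZ, a cysteine carboxypeptidase, stood at 96.5, 101 and 89.3 FPKM in the CBD libraries, against 71.7, 85.3 and 81.5 FPKM in the vehicle libraries. These groups did not overlap either, with a difference of 0.27 ± 0.08 (limma adjusted p = 0.0897). The endopeptidase genes CTSB and CTSL averaged 40.98 ± 0.809 FPKM with CBD and 39.2 ± 1.23 FPKM with vehicle and 18.9 ± 0.403 FPKM with CBD and 17.7 ± 1.69 FPKM with vehicle, overlapping in both cases. CTSC, which activates serine proteases of immune cells, averaged 26.6 ± 0.445 FPKM with CBD and 28.2 ± 0.892 FPKM with vehicle, with no overlap. CTSH, an aminopeptidase, averaged 5.99 ± 0.318 FPKM with CBD and 5.46 ± 0.247 FPKM with vehicle, also with no overlap. TPP1, a tripeptidyl peptidase, averaged 11.4 ± 0.194 FPKM with CBD and 12.6 ± 1.41 FPKM with vehicle and overlapped. CTSS, a cathepsin of antigen-presenting cells, lay under the level tested at 0.912 to 1.04 FPKM with CBD and 0.679 to 1.22 FPKM with vehicle. Over the 8 tested proteases the median log2 difference was 0.10; 6 lay above 0 and 2 below.

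Glycosidases and lipid hydrolases stood on both sides of 0. GAA (chromosome 17, 80101556 to 80119879), the acid alpha-glucosidase that degrades glycogen, stood at 57.00, 56.5 and 54.99 FPKM in the CBD libraries, against 43.7, 49.3 and 44.5 FPKM in the vehicle libraries. The groups were well separated, with a difference of 0.29 ± 0.06 (95% interval 0.15 to 0.43). Its limma adjusted p of 0.0604 was the smallest in the set (range over alternatives 0.00181 to 0.731). LIPA, the acid lipase of cholesteryl esters, stood at 22.8, 22.7 and 22.8 FPKM in the CBD libraries, against 30.4, 23.9 and 24.99 FPKM in the vehicle libraries. The CBD values were nearly identical and below all vehicle values, the highest of which was again vehicle replicate 1; the difference was -0.20 ± 0.09 (limma adjusted p = 0.172) and -0.10 without that library. NEU1, the lysosomal sialidase, had 14.4, 14.5 and 13.9 FPKM in the CBD libraries, against 14.02, 13.02 and 11.95 FPKM in the vehicle libraries. Those ranges overlapped at vehicle replicate 1 (difference 0.13 ± 0.06; limma adjusted p = 0.205).

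GLB1, the beta-galactosidase used as a senescence stain, averaged 29.6 ± 0.456 FPKM with CBD and 28.9 ± 1.30 FPKM with vehicle (SD, n = 3 each). GLA, the alpha-galactosidase lost in Fabry disease, averaged 17.5 ± 0.204 FPKM with CBD and 18.1 ± 0.727 FPKM with vehicle. HEXA, the alpha subunit of hexosaminidase, averaged 2.99 ± 0.330 FPKM with CBD and 2.84 ± 0.117 FPKM with vehicle, and the ceramidase gene ASAH1 5.01 ± 0.0550 FPKM with CBD and 5.51 ± 0.371 FPKM with vehicle. GLB1, GLA and HEXA overlapped between groups, while all 3 CBD values of ASAH1 lay below those of vehicle. The median over the 7 genes was 0.03 on the log2 scale.

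PSAP and GRN were the most abundant genes of the set, and all 3 genes of soluble carriers and cofactors had CBD values above the vehicle values. PSAP, precursor of the saposins that present sphingolipids to their hydrolases, stood at 379.7, 399.7 and 375 FPKM in the CBD libraries, against 333, 353 and 333 FPKM in the vehicle libraries. The difference was 0.18 ± 0.05 on the log2 scale (limma adjusted p = 0.0880, range over alternatives 0.00488 to 0.308). GRN, whose product progranulin is cleaved in lysosomes, had 225, 231 and 225 FPKM in the CBD libraries, against 213, 203 and 186 FPKM in the vehicle libraries. The 3 CBD values lay within a narrow band above vehicle (difference 0.18 ± 0.06; limma adjusted p = 0.108). NPC2, which hands cholesterol to NPC1, stood at 60.6, 63.2 and 58.8 FPKM in the CBD libraries, against 43.1, 56.9 and 54.3 FPKM in the vehicle libraries. Vehicle replicate 1 was far below the other vehicle libraries, and the difference of 0.25 ± 0.10 (limma adjusted p = 0.152) was 0.13 without it.

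**Figure D2:**
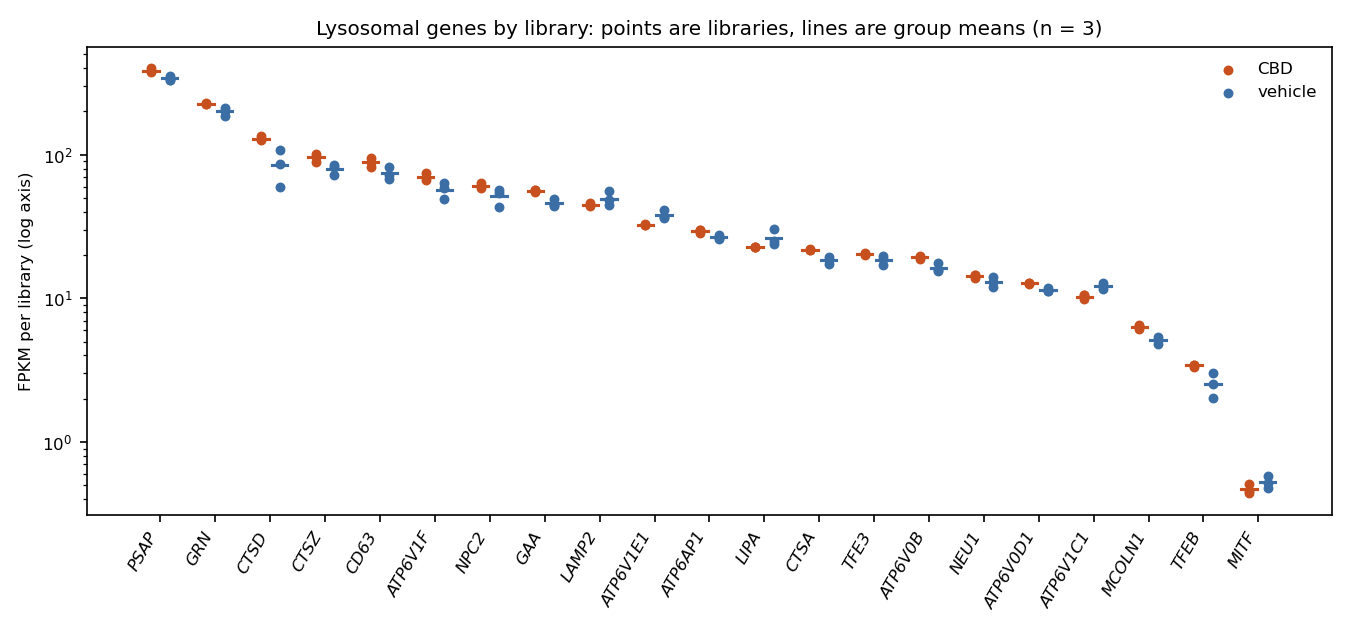
FPKM in each library (log y axis) for the genes described library by library, ordered by mean level, with CBD to the left of vehicle; points are libraries and lines group means. CBD points cluster tightly, and in CTSD, NPC2 and TFEB the vehicle points spread more widely, with vehicle replicate 1 lowest.

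V-ATPase genes lay on both sides of 0: of 15 subunit genes, 7 log2 differences lay above 0 and 8 below, with a median of -0.03. The V0 and accessory genes had a median of 0.13 and the V1 genes of -0.04; with the trend in GC content removed from each library, as described further on, these medians were 0.00 and 0.06. ATP6V0B, a proteolipid of the rotor ring, stood at 19.5, 19.7 and 18.9 FPKM in the CBD libraries, against 15.6, 17.6 and 15.7 FPKM in the vehicle libraries. Each CBD value was above each vehicle value (difference 0.24 ± 0.06; limma adjusted p = 0.0720, range over alternatives 0.00251 to 0.299). ATP6V0D1, the stalk subunit that joins the ring to V1, stood at 12.8, 12.5 and 12.8 FPKM in the CBD libraries, against 11.8, 11.3 and 11.2 FPKM in the vehicle libraries. It too was separated between groups, with a difference of 0.14 ± 0.04 (limma adjusted p = 0.103). ATP6AP1, an accessory subunit, had 29.7, 30.1 and 28.3 FPKM in the CBD libraries, against 26.5, 27.6 and 25.95 FPKM in the vehicle libraries. The separation there was small, 0.13 ± 0.05 (limma adjusted p = 0.120).

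ATP6AP2, the accessory subunit also known as the prorenin receptor, averaged 10.03 ± 0.226 FPKM with CBD and 11.1 ± 0.494 FPKM with vehicle (SD, n = 3 each), with no overlap. ATP6V0E1, a small membrane subunit, averaged 60.8 ± 1.21 FPKM with CBD and 66.6 ± 10.2 FPKM with vehicle and overlapped. The large membrane subunit has several paralogues, of which ATP6V0A1 averaged 4.58 ± 0.189 FPKM with CBD and 4.70 ± 0.286 FPKM with vehicle, ATP6V0A2 1.60 ± 0.0609 FPKM with CBD and 1.83 ± 0.176 FPKM with vehicle, and TCIRG1 24.1 ± 0.859 FPKM with CBD and 20.8 ± 1.51 FPKM with vehicle, the highest of the 3. ATP6V0C, the main ring proteolipid, varied widely, at 8.70, 4.96 and 7.28 FPKM in the CBD libraries, against 2.25, 6.78 and 5.89 FPKM in the vehicle libraries. It overlapped between groups, and 72.1% of its exon bases (chromosome 16, 2513870 to 2520218) are shared with same-strand annotated genes that had 0 FPKM in each library, so its level is uncertain.

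Among V1 genes, ATP6V1C1, ATP6V1E1 and ATP6V1A had lower values in every CBD library than in any vehicle library, and ATP6V1F higher ones. ATP6V1C1, the subunit that regulates attachment of V1 to V0, stood at 9.85, 10.5 and 10.5 FPKM in the CBD libraries, against 12.9, 11.6 and 12.1 FPKM in the vehicle libraries. No CBD value reached the vehicle range (difference -0.22 ± 0.06; limma adjusted p = 0.0717, range over alternatives 0.00434 to 0.469). ATP6V1E1, of the peripheral stalk, stood at 32.4, 32.5 and 32.8 FPKM in the CBD libraries, against 41.4, 36.3 and 36.8 FPKM in the vehicle libraries. Its CBD values were nearly equal and below vehicle, with a difference of -0.22 ± 0.06 (limma adjusted p = 0.0821). ATP6V1F, of the central rotor, had 74.4, 69.4 and 66.5 FPKM in the CBD libraries, against 49.1, 58.4 and 63.2 FPKM in the vehicle libraries. Here the CBD libraries lay above the vehicle libraries (difference 0.30 ± 0.10; limma adjusted p = 0.0984), and 23.7% of the exon bases are shared with KCP, a gene on the opposite strand.

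Of the catalytic head, ATP6V1A, which binds ATP, averaged 30.5 ± 0.776 FPKM with CBD and 33.6 ± 1.12 FPKM with vehicle (SD, n = 3 each) without overlap, and its partner ATP6V1B2 averaged 7.52 ± 0.212 FPKM with CBD and 7.46 ± 0.156 FPKM with vehicle. The kidney paralogue ATP6V1B1 had at most 0.0482 FPKM in any library. The rotor gene ATP6V1D averaged 19.5 ± 0.655 FPKM with CBD and 19.97 ± 0.0273 FPKM with vehicle, and the regulatory gene ATP6V1H 10.97 ± 0.618 FPKM with CBD and 11.4 ± 1.15 FPKM with vehicle. ATP6V1G1, of the peripheral stalk, averaged 69.5 ± 3.07 FPKM with CBD and 62.5 ± 14.6 FPKM with vehicle, with 45.6 FPKM in vehicle replicate 1, the lowest library. In FPKM, ATP6V1G1 and ATP6V1F stood above the other V1 genes, followed by ATP6V1E1 and ATP6V1A, and ATP6V1B2 lay lowest. The exon length of ATP6V1B2 is 7816 bases, beside 789 for ATP6V1F. Fragments of ATP6V1B2 with CBD, 1174 to 1414, were close in number to those of ATP6V1F, 1083 to 1400. ATP6V1C1 and ATP6V1H overlapped in their levels with CBD.

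**Figure D3:**
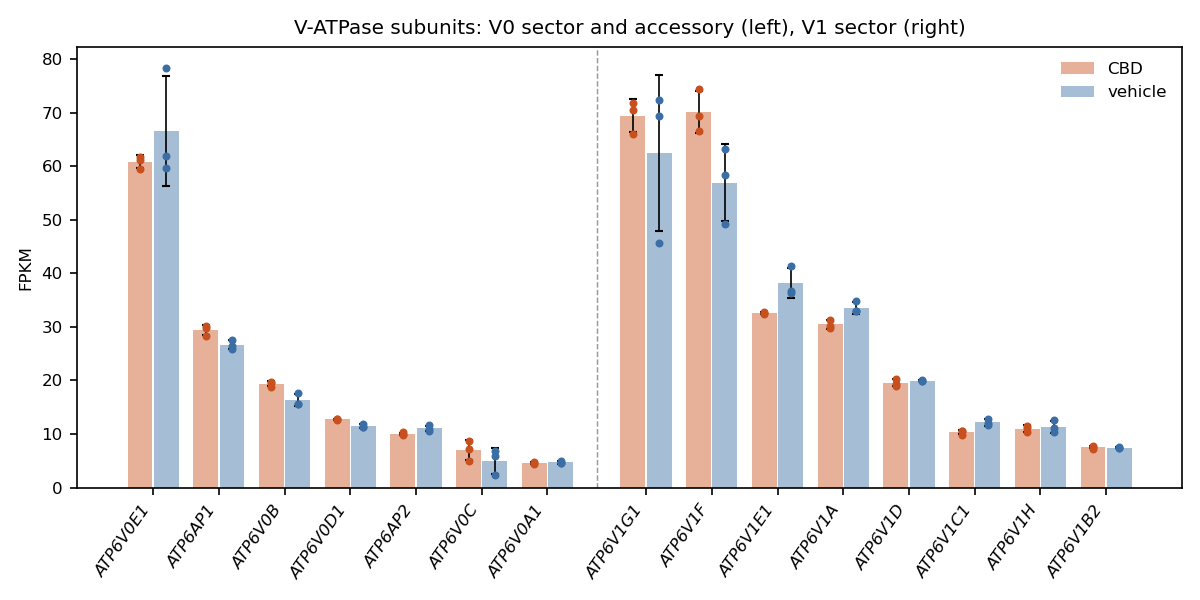
FPKM of V-ATPase subunit genes, with V0 and accessory subunits on the left and V1 subunits on the right, CBD bars left of vehicle bars; bars are means, whiskers SD (n = 3) and points libraries. FPKM differ between subunits far more than between CBD and vehicle, from 4.58 FPKM for ATP6V0A1 to 70.1 FPKM for ATP6V1F with CBD. Their exon lengths are 10955 and 789 bases, and their fragments with CBD were close in number, 1083 to 1156 and 1083 to 1400.

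Of the transcription factors, TFE3 was the most abundant in each library and MITF the least. TFEB (chromosome 6, 41683978 to 41736259), the best-known regulator of lysosome biogenesis, stood at 3.44, 3.46 and 3.33 FPKM in the CBD libraries, against 2.03, 3.02 and 2.54 FPKM in the vehicle libraries. Each CBD value lay above each vehicle value, with a log2 difference of 0.33 ± 0.10 (95% interval 0.08 to 0.58; limma adjusted p = 0.0975, range over alternatives 0.00484 to 0.414) and 0.23 without vehicle replicate 1. TFE3, a close relative with the same DNA-binding preference, had 20.6, 20.2 and 19.9 FPKM in the CBD libraries, against 17.1, 19.6 and 18.8 FPKM in the vehicle libraries. The groups were separated narrowly, by 0.13 ± 0.06 (limma adjusted p = 0.186). MITF, better known from melanocytes, had too low a mean to be tested, with 0.438, 0.511 and 0.459 FPKM in the CBD libraries, against 0.518, 0.476 and 0.582 FPKM in the vehicle libraries. These values overlapped. These factors are regulated largely by their location in the cell, which RNA levels do not measure.

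Promoter sequence was read for 33 of the 44 genes, those with an entry in the RefSeq-derived table used here (GRCh38.p14, windows of 300 bases from 250 before to 50 after each annotated start). The E-box CACGTG, its extension TCACGTGA and a longer CLEAR form with G before and C after that extension are nested palindromes, so a search of one strand covers both. CACGTG was found for 11 of the 33 genes (33.3%), beside 12.8% of the 9141 tested genes with a window. TCACGTGA was found for 7 (21.2%, beside 2.42%), and the longer CLEAR form for 3, GAA, MCOLN1 and ATP6V1G1 (9.09%, beside 0.952%). In the other lysosomal genes listed, 9 of 36 windows held CACGTG. GAA carried the longer form with E-boxes starting at -76 and -31 relative to the start, and LAMP1 carried 6 E-boxes. The 90 bases before the start are given for 8 genes with an E-box in that stretch; capitals mark CACGTG.
GAA promoter, chr17:80101491-80101580, plus strand: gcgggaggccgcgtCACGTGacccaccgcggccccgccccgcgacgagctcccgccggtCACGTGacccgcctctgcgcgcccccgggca
MCOLN1 promoter, chr19:7522534-7522623, plus strand: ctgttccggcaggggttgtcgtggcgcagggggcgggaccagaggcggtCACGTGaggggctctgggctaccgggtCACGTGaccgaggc
CTSA promoter, chr20:45891245-45891334, plus strand: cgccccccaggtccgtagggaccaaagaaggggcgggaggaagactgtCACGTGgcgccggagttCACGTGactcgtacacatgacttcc
CTSD promoter, chr11:1763928-1764017, minus strand: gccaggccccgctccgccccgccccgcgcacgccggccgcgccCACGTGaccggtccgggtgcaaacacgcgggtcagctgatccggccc
LAMP1 promoter, chr13:113297149-113297238, plus strand: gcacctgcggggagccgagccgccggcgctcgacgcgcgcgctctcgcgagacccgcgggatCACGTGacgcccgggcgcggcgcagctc
ATP6V0B promoter, chr1:43974870-43974959, plus strand: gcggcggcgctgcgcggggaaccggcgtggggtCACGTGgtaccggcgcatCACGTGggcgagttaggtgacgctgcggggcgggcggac
ATP6V0D1 promoter, chr16:67481158-67481247, minus strand: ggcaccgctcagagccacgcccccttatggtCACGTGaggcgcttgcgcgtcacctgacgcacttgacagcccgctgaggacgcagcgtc
ATP6V1G1 promoter, chr9:114587679-114587768, plus strand: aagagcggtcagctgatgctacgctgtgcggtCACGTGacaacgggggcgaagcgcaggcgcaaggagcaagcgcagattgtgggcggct

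The 10 tested lysosomal genes with an E-box in the window (ATP6V0B, ATP6V0D1, ATP6V1G1, CD63, CTSA, CTSD, GAA, LAMP1, MCOLN1 and NEU1) all had log2 differences above 0, from 0.07 to 0.66 with a median of 0.24. ATP6V1G1 overlapped between groups, and its difference of 0.18 was -0.03 without vehicle replicate 1, so that 9 of the 10 stayed above 0 in each alternative. The 21 tested genes with a window and no E-box ran from -0.22 to 0.49 with a median of 0.03, 12 above 0 and 9 below. Over all 1169 tested genes with an E-box the median was -0.01, and over 7972 without one -0.02. The lysosomal genes with an E-box were also richer in GC, with a median transcript GC content of 57.3% beside 50.3% for those without; with the GC trend removed their medians were 0.09 and 0.03. The part of GC content in that contrast was not tested, and a match to these letters is a description of the sequence, not a binding site.

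**Figure D4:**
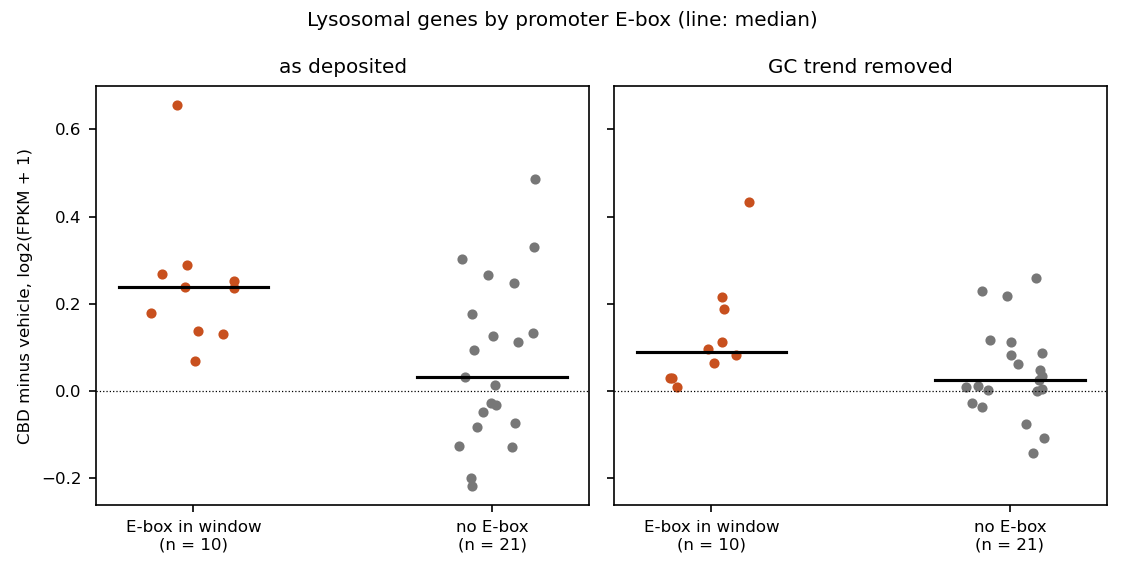
Log2 difference between CBD and vehicle (y axis) for lysosomal genes with and without CACGTG in the promoter window, as deposited (left) and with the GC trend removed (right); lines are medians. All 10 genes with an E-box lie above 0 in the left panel (9 without vehicle replicate 1), with a median of 0.24, and their median is 0.09 in the right panel.

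Within the set the direction of a gene followed the GC content of its transcripts. Across the 41 genes the Spearman correlation of the log2 difference with GC content was 0.88, and 0.66 across 12510 tested genes with a GC value; genes share libraries and are not independent. Of the 25 lysosomal genes above the median GC content of all tested genes (49.5%), 24 had a difference above 0, with a median of 0.18; TPP1 was the exception. Of the 16 at or below it 14 lay below 0, with a median of -0.10, the exceptions being NPC1 and ATP6V1B2. All tested genes split in the same way had medians of 0.10 and -0.11. Of all genes above the median GC content, 74.8% had a difference above 0, beside 96% of the lysosomal genes there. Of those at or below it, 80.1% lay below 0, beside 87.5% of the lysosomal genes. With a smooth GC trend removed from each library, the correlation within the set was 0.40, its median difference 0.03 beside -0.01 for all genes, and 0 of 41 genes were called by limma, beside 0.0559% of all genes (0.024% higher and 0.032% lower). GAA, with a GC content of 65.1%, then had a difference of 0.03, MCOLN1 of 0.08 and TFEB of 0.12. CTSD had 0.43 and NPC2, at 50.3% GC, 0.26, while ATP6V1C1 stood at -0.06 and GRN turned to -0.04. In all the sign turned for 12 of the 41 genes with the GC trend removed: CTSB, GRN and ATP6AP1 went below 0, and LAMP2, SCARB2, CTSC, GLA, ASAH1, ATP6V0A1, ATP6AP2, ATP6V1D and ATP6V1H above it. Of these 12, CTSC, ASAH1, GRN, ATP6AP1 and ATP6AP2 had groups that did not overlap as deposited. Library GC content and treatment cannot be told apart, because the 3 CBD libraries are the 3 with the highest GC content.

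**Figure D5:**
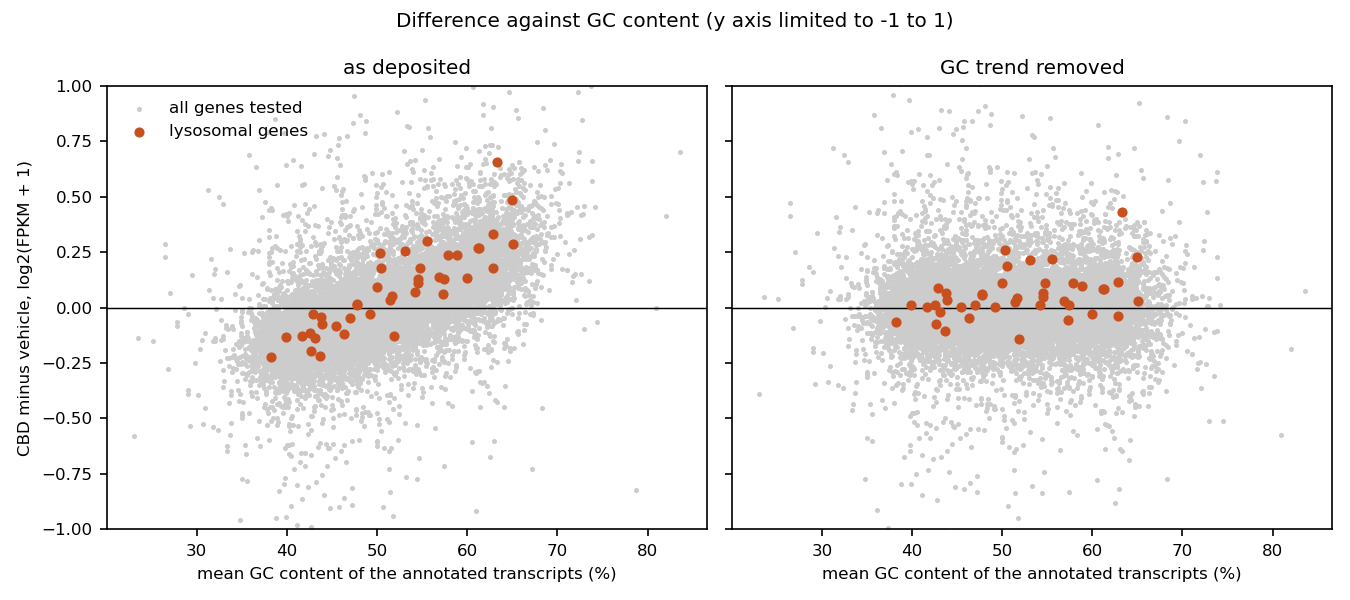
Log2 difference between CBD and vehicle (y axis) against mean transcript GC content in percent (x axis) for all tested genes (grey) and lysosomal genes (orange), as deposited (left) and with the GC trend removed (right). The lysosomal genes follow the slope of all genes on the left; 29 genes on the left and 25 on the right lie outside the plotted range.

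No other lysosomal gene in the lists was called by limma on log2(FPKM + 1). Of 52 further lysosomal enzymes, cofactors and membrane proteins, 49 were tested and limma called 0 higher and 0 lower; 13 were higher (26.5%) and 1 lower (2.04%) at an unadjusted p under 0.05, beside 15.4% and 16.0% of all genes tested. Limma-voom called 3 higher (6.12%) and 0 lower, beside 7.26% and 6.69% of all genes. Their median log2 difference was 0.03. The values of least p were those of CTSF, a cysteine protease, with 22.7 ± 0.557 FPKM with CBD and 18.2 ± 1.79 FPKM with vehicle (SD, n = 3 each; limma adjusted p = 0.0676), and of the acid sphingomyelinase gene SMPD1, with 13.1 ± 0.189 FPKM with CBD and 11.4 ± 0.142 FPKM with vehicle (limma adjusted p = 0.0683). SCPEP1, a carboxypeptidase, had 71.8 ± 3.81 FPKM with CBD and 59.5 ± 4.96 FPKM with vehicle (limma adjusted p = 0.0817), and the acid nuclease gene DNASE2 21.1 ± 1.22 FPKM with CBD and 17.4 ± 1.65 FPKM with vehicle (limma adjusted p = 0.0880). With the GC trend removed the log2 difference was 0.21 for CTSF in place of 0.31, 0.02 for SMPD1 in place of 0.18, 0.29 for SCPEP1 in place of 0.27 and 0.17 for DNASE2 in place of 0.27.

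Genes that deliver enzymes to lysosomes, 12 tested of 12, had a median difference of 0.04, with 0 called by limma in either direction. At an unadjusted limma p under 0.05, 1 was higher and 1 lower (8.33% each), beside 15.4% and 16.0% of all genes tested. Limma-voom called 1 higher (8.33%) and 0 lower, beside 7.26% and 6.69% of all genes. GNPTG, a subunit of the enzyme that makes the mannose 6-phosphate tag, averaged 8.62 ± 0.418 FPKM with CBD and 6.87 ± 0.804 FPKM with vehicle (SD, n = 3 each; limma adjusted p = 0.0832). Its partner GNPTAB averaged 9.28 ± 0.155 FPKM with CBD and 10.7 ± 1.31 FPKM with vehicle (limma adjusted p = 0.179). The adaptor gene AP1G1 averaged 8.16 ± 0.158 FPKM with CBD and 9.10 ± 0.371 FPKM with vehicle (limma adjusted p = 0.113), and GGA1, a sorting adaptor, 3.88 ± 0.317 FPKM with CBD and 3.33 ± 0.367 FPKM with vehicle (limma adjusted p = 0.197). With the GC trend removed the log2 difference was 0.09 for GNPTG in place of 0.29 and -0.07 for GNPTAB in place of -0.18. It was -0.10 for AP1G1 in place of -0.14 and 0.004 for GGA1 in place of 0.18. The receptor genes of the tag, M6PR and IGF2R, averaged 23.2 ± 0.563 FPKM with CBD and 24.1 ± 1.41 FPKM with vehicle and 16.5 ± 0.206 FPKM with CBD and 16.9 ± 0.210 FPKM with vehicle.

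Further V-ATPase paralogues and assembly factors numbered 16, of which 10 were tested and 0 called by limma in either direction; 2 were higher and 1 lower at an unadjusted p under 0.05, beside 15.4% and 16.0% of all genes tested, and limma-voom called 1 higher, beside 7.26%. TCIRG1 had a log2 difference of 0.21 (limma adjusted p = 0.0920), which was -0.06 with the GC trend removed. CCDC115, an assembly factor, averaged 6.07 ± 0.298 FPKM with CBD and 4.62 ± 0.783 FPKM with vehicle (SD, n = 3 each; limma adjusted p = 0.0953). VMA21, another assembly factor, averaged 14.7 ± 0.555 FPKM with CBD and 16.5 ± 0.904 FPKM with vehicle (limma adjusted p = 0.119), and DMXL1, of the complex that reassembles the pump, 3.62 ± 0.110 FPKM with CBD and 4.22 ± 0.598 FPKM with vehicle (limma adjusted p = 0.225). With the GC trend removed the log2 difference was 0.31 for CCDC115 in place of 0.34 and -0.05 for VMA21 in place of -0.16. It was 0.0007 for DMXL1 in place of -0.17.

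In the list of mTORC1 and nutrient-sensing genes, 19 of 21 were tested, 0 were called in either direction by limma or limma-voom, and 3 were higher (15.8%) and 0 lower at an unadjusted p under 0.05, beside 15.4% and 16.0% of all genes tested (median difference 0.06). LAMTOR2, a subunit of the Ragulator scaffold, averaged 16.97 ± 0.720 FPKM with CBD and 13.9 ± 1.70 FPKM with vehicle (SD, n = 3 each; limma adjusted p = 0.0928). LAMTOR1, its membrane anchor, averaged 43.7 ± 0.594 FPKM with CBD and 40.1 ± 1.80 FPKM with vehicle (limma adjusted p = 0.152), and LAMTOR4 25.97 ± 2.89 FPKM with CBD and 21.7 ± 2.83 FPKM with vehicle (limma adjusted p = 0.179). LAMTOR2 had a log2 difference of 0.28, and of 0.19 with the GC trend removed. The same values were 0.12 and 0.03 for LAMTOR1 and 0.25 and 0.11 for LAMTOR4. TSC2, which restrains mTORC1, averaged 4.23 ± 0.172 FPKM with CBD and 3.76 ± 0.0308 FPKM with vehicle (limma adjusted p = 0.138); its log2 difference of 0.13 was -0.04 with the GC trend removed. The kinase gene MTOR itself averaged 10.4 ± 0.234 FPKM with CBD and 10.6 ± 0.347 FPKM with vehicle. TFEC, the remaining MiT/TFE gene, had at most 0.00970 FPKM in any library.

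Spread within the groups bears on each of these comparisons. The median coefficient of variation of the 41 genes was 2.34% among CBD libraries and 6.63% among vehicle libraries, beside 4.80% and 8.71% for all genes tested. Vehicle replicate 1 was the highest library for 15 of the 41 genes and the lowest for 16. Added up, the 44 genes reached 1823, 1862 and 1777 FPKM in CBD replicates 1 to 3, against 1600.5, 1698 and 1620.1 FPKM in vehicle replicates 1 to 3, and the V-ATPase genes alone 404, 396 and 385 FPKM against 375, 389.7 and 386 FPKM. PSAP, GRN and CTSD make up a large part of the first sum. In level, every PSAP value exceeded every GRN value, and every GRN value exceeded every CTSD value. CTSD, CTSZ and CD63 overlapped one another over all 6 libraries. Among CBD libraries alone, CTSD at 126 to 134 FPKM lay above CTSZ at 89.3 to 101 FPKM and CD63 at 82.4 to 94.7 FPKM.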

How the data were processed

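RNA of 6 libraries was sequenced as read pairs (labels' protocols). The deposited values are FPKM, one column per library and not pooled, per the file headers; HISAT2 2.0.5 and featureCounts 1.5.0-p3 appear in the submitters' processing notes. Genome build, annotation, strand setting and filters are not given in the sources used here, so fragments of genes that share exons cannot be told apart. The treatment tag gave the groups and the titles the replicate numbers; the free-text description numbers the line differently in each sample, and the cell line tag was used.

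All 58735 identifiers were found in GENCODE 29. Multiplying FPKM by exon-union length and a factor per library returned whole numbers of fragments in 100% of cases (tolerance 0.01), which gave the depths; 3 fragments correspond to 0.126 to 0.153 FPKM at 1 kb, counting error only. Differences were fitted by limma 3.58.1 in R 4.3.3 on log2(FPKM + 1), which understates changes of low genes, over 12517 genes (mean FPKM 1 or more), with an intensity trend and Benjamini-Hochberg adjustment over all of them. GC content is the mean over a gene's annotated transcripts; the GC trend was a loess curve (span 0.3) per library. Python 3.11.15 was used for tables. Simulated data tested the fit. The genes, lists and alternatives were chosen with earlier results of these data known. By rule, values of each library are given for the 3 genes of least p in each role and for the transcription factors, and in other lists the 4 of least p are named; M6PR, IGF2R, MTOR, TFEC, ATP6V0A2 and ATP6V1B1 were added after their values were seen. Sharing of exons with other genes is given for CLN3, CTSD, CTSA, ATP6V0C and ATP6V1F, and not for the other genes that share some.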

Additional observations from a re-analysis of the deposited data

How the results depend on the processing

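Of 19 alternatives, the count of all genes called, 32 higher and 12 lower, moved most. It was 427 and 305 with a mean FPKM of at least 5, 2 and 2 with every library at the same sum, 54 and 19 with quantile normalization, 0 and 1 with no intensity trend, 2711 and 2863 with library weights, 0 and 0 with the replicate block, 3 and 4 with the GC trend removed, 0 and 0 with the GC trend removed and the replicate block, 909 and 837 with limma-voom, 0 and 0 with no filter on low values. Leaving out a library gave 0 to 1267 higher and 0 to 1084 lower, with the highest counts without vehicle replicate 2 and 59 and 22 without vehicle replicate 1. Among the 41 genes, 0 called became 4 higher and 1 lower with a mean FPKM of at least 5, 19 higher and 5 lower with library weights, 10 higher and 2 lower with limma-voom, and 0 to 9 higher and 0 to 2 lower without 1 library, the calls coming from leaving out vehicle replicate 2. HEXA, ATP6V0A1 and TFEB lay under a mean of 5 FPKM and were not tested at that limit. The weights were estimated without full convergence. Library weights gave 16 higher and 4 lower among 49 tested other lysosomal genes, and 2 higher and 2 lower among 12 sorting genes. They gave 3 higher and 0 lower among 10 V-ATPase paralogues, and 5 higher and 1 lower among 19 nutrient-sensing genes. Of all genes, library weights called 21.7% higher and 22.9% lower. A mean of at least 5 FPKM gave 2 higher among other lysosomal genes, beside 5.87% of all genes. Limma-voom gave 3, 1 and 1 higher among other lysosomal genes, sorting genes and V-ATPase paralogues, beside 7.26% of all genes. Leaving out 1 library gave 0 to 9 higher and 0 to 1 lower among other lysosomal genes. It gave 0 to 1 higher and 0 to 0 lower among sorting genes, among V-ATPase paralogues and among nutrient sensing. These calls came without vehicle replicate 2, where 10.1% and 8.66% of all genes were called higher and lower.

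Medians that moved by more than 1 SD between libraries were these, while ranges for leaving out 1 library are given for every list, moved or not. Leaving out 1 library moved only the medians of the 41 genes, glycosidases and lipid hydrolases, V1, other lysosomal genes and nutrient sensing by that much. Every library at the same sum gave 0.0529 for the 41 genes, 0.0442 for nutrient sensing. Quantile normalization gave 0.0511 for the 41 genes, 0.12 for carriers. Removing the GC trend, with or without the replicate block, gave 0.0348 for the 41 genes, 0.11 for carriers, 0.00402 for V0, 0.0623 for V1, 0.0630 for transcription factors, -0.0141 for sorting genes, 0.0208 for nutrient sensing. A mean FPKM of at least 5 gave -0.00746 for glycosidases and lipid hydrolases, 0.21 for V-ATPase paralogues, 0.0401 for nutrient sensing. These medians cover fewer genes than the main ones. HEXA dropped out of the glycosidases, and several nutrient-sensing genes dropped out as well. Of the paralogues only TCIRG1, CCDC115 and VMA21 remained, and 0.21 is the value of TCIRG1. Library weights gave 0.0732 for other lysosomal genes, -0.00761 for sorting genes, 0.0205 for nutrient sensing. Leaving out 1 library gave medians of 0.0634 to 0.10 for the 41 genes, 0.0157 to 0.0685 for membrane proteins, 0.0807 to 0.13 for proteases, -0.0130 to 0.0277 for glycosidases and lipid hydrolases, 0.16 to 0.21 for carriers, 0.0959 to 0.13 for V0, -0.0649 to -0.0292 for V1, 0.15 to 0.30 for transcription factors, 0.0106 to 0.0598 for other lysosomal genes, 0.0168 to 0.0493 for sorting genes, 0.00558 to 0.0482 for V-ATPase paralogues, -0.00701 to 0.0812 for nutrient sensing. Within 1 SD, the protease median was 0.07 with the GC trend removed, in place of 0.10, and the V0 median 0.16 with library weights, in place of 0.13. Of the 41 genes, 24 kept their sign in each alternative and 17 did not; of 16 genes named in other lists 3 did not. With the GC trend removed, with or without the replicate block, the difference turned to 0.0127 for LAMP2, 0.0348 for SCARB2, -0.0541 for CTSB, 0.00184 for CTSC, 0.0123 for GLA, 0.01005 for ASAH1, -0.0373 for GRN, 0.000365 for ATP6V0A1, -0.0283 for ATP6AP1, 0.00402 for ATP6AP2, 0.0885 for ATP6V1D, 0.0667 for ATP6V1H, -0.0573 for TCIRG1, 0.000694 for DMXL1, -0.0389 for TSC2. It also turned to -0.000307 for NPC1 with every library at the same sum, to 0.0106 for ATP6V0A1 with library weights, to 0.0139 for ATP6V0E1 with library weights, to -0.00477 for ATP6V1B2 with every library at the same sum. Leaving out 1 library turned NPC1 to -0.0332 without vehicle replicate 2, HEXA to -0.0130 without CBD replicate 1, ATP6V0A1 to 0.0130 without vehicle replicate 1, ATP6V0E1 to 0.00252 without vehicle replicate 1, ATP6V1B2 to -0.00493 without CBD replicate 2, ATP6V1B2 to -0.00321 without vehicle replicate 3, ATP6V1G1 to -0.0292 without vehicle replicate 1, ATP6V1H to 0.0300 without vehicle replicate 1; over all libraries left out in turn the range was -0.0332 to 0.0535 for NPC1, -0.0130 to 0.101 for HEXA, -0.0548 to 0.0130 for ATP6V0A1, -0.192 to 0.00252 for ATP6V0E1, -0.00493 to 0.0299 for ATP6V1B2, -0.0292 to 0.298 for ATP6V1G1, -0.0993 to 0.0300 for ATP6V1H. Why results moved was not tested, beyond the GC values given above. Libraries with the same replicate number did not deviate together (correlations of deviations -0.0027, 0.052 and 0.024), so the numbers were not taken as pairs; with the replicate block 0 of the 41 genes were called. The narrower promoter window held CACGTG in 9 genes in place of 11, TCACGTGA in 6 in place of 7 and the longer CLEAR form in 3. Low fragment counts limit CLN3, CTSS and MITF, at 14 to 118 fragments a library, and 3 libraries a group limit every test. For CLN3 the part of shared exons in the low count was not tested.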
